A study of Homo sapiens with 6 samples.

Results

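The collagen chains analysed here were the 43 protein-coding genes whose symbol consists of COL, a number, A and a number, with COL17A1 left out, among 19692 protein-coding genes and 34486 genes of any type that were quantified. They were measured by total RNA sequencing in MCF10A, an established, non-tumorigenic human mammary epithelial line. The 2 groups were siPDCD4 (3 libraries), in which an siRNA pool against PDCD4 was given, and siCT (3 libraries), which received a control siRNA. Both groups had no engineered allele, received their siRNA at 10 nM by reverse transfection, were collected after 48 h, and grew with serum, epidermal growth factor, insulin, hydrocortisone and cholera toxin. PDCD4 is an RNA-binding tumour suppressor protein, and the comparison asks which transcripts differ in abundance when it is depleted. The labels do not say whether the 3 libraries of a group came from separate cultures, and a p-value here reflects library-to-library variation that could be technical.

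Collagens are secreted proteins in which 3 chains wind into a triple helix. The helix is built on a repeating triplet, Gly-X-Y, in which glycine always takes the same place. Epithelial cells rest on a basement membrane whose network is built of type IV collagen, and basal keratinocytes make type VII collagen, which forms the anchoring fibrils that tie this membrane to the stroma. Fibrillar collagens such as types I, III and V are made mainly by fibroblasts, and the FACIT collagens (fibril-associated collagens with interrupted triple helices, such as types XII and XVI) attach to fibrils made by others.

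The repeat is what the proteins share although membership rested on the symbol alone. It was followed in the coding sequence of the transcript with the highest mean share of the gene's counts in siCT, or in the longest complete coding sequence for COL9A1 and for genes that were not tested, as at least 5 consecutive triplets that each begin with a glycine codon (GGN). Such runs covered between 8.19% of codons in COL12A1 and 85.7% in COL9A3. The longest unbroken run was 338 triplets in the fibrillar chain COL1A1 and 339 in COL5A2, against 40 in COL4A5, 66 in COL4A2, 61 in COL8A1, 75 in COL7A1, 57 in COL16A1 and 32 in COL12A1. The chains that were abundant in MCF10A cells thus had shorter runs than the fibrillar ones. Short runs were not particular to abundant chains. Among other chains outside the fibrillar family, with few or no counts, the longest run was 39 in COL4A3, 32 in COL14A1 and 61 in COL10A1. To show the repeat itself, 8 triplets from within a single exon are printed for 6 of the abundant chains. Only the glycine codon that opens each triplet is in capitals, and a glycine codon elsewhere in a triplet is in lower case. The triplets are given 5′ to 3′ on the coding strand of GRCh38 (GENCODE 44 transcripts). They lie at chrX:108606766-108606837 (plus strand, COL4A5), chr13:110480228-110480299 (plus strand, COL4A2), chr3:99794952-99795023 (plus strand, COL8A1), chr6:75090156-75090227 (minus strand, COL12A1), chr3:48575384-48575455 (minus strand, COL7A1) and chr1:31655431-31655502 (minus strand, COL16A1).
COL4A5: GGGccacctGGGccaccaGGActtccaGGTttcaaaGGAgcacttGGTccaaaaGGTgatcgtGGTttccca
COL4A2: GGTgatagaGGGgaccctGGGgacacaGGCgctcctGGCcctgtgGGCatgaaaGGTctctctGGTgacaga
COL8A1: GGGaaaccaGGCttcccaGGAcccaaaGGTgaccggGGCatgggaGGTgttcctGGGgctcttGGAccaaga
COL12A1: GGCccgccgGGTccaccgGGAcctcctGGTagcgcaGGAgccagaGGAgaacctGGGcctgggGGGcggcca
COL7A1: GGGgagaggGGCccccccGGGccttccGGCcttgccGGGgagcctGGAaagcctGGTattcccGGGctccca
COL16A1: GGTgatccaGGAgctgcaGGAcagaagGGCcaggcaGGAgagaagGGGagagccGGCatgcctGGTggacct

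Libraries held between 13410441 and 21828931 estimated counts, of which the 43 chains took between 0.0695% and 0.0964%. PDCD4 itself was at 9.13, 7.45 and 8.66 CPM (library-scaled counts, corrected for transcript length) in siPDCD4, against 89.5, 88.7 and 61.9 in siCT, a log2 fold change of -3.24 ± 0.17 (SE, edgeR adjusted p = 4.05e-05). Epithelial markers were detected for 12 of 12 genes, with summed levels between 2854 and 3480 TPM in siPDCD4 and between 3108 and 3622 TPM in siCT (TPM, the length-corrected relative abundance that Salmon reports). Of the fibroblast markers, DPT and TCF21 were at 0 in all libraries and the list summed to between 7.89 and 16.7 TPM in siPDCD4, against 8.06 and 11.99 TPM in siCT, most of it FAP. The endothelial list summed to between 0.361 and 0.892 TPM in siPDCD4 and between 0.412 and 0.757 TPM in siCT. The immune list summed to between 7.25 and 8.32 TPM in siPDCD4 and between 7.07 and 9.62 TPM in siCT, most of it CD68, which is not confined to immune cells. On the first principal component siCT replicate 3 lay at 30.9 and siPDCD4 replicate 3 at 8.85, with the other libraries between -16.1 and -5.03. The library siCT replicate 3 thus stood furthest apart, with replicate 3 of siPDCD4 shifted the same way. In siCT replicate 3, 76.2% of counts lay in protein-coding genes, against between 78.7% and 86.4% in the other libraries. This share set it less apart. Some estimates are also given without siCT replicate 3.

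A chain was taken as expressed in a group where it averaged at least 1 TPM. By this measure 11 chains were expressed in siPDCD4 and 12 in siCT, and the 11 were all among the 12. In order of their siCT level these were COL4A5, COL4A2, COL8A1, COL4A1, COL4A6, COL12A1, COL7A1, COL16A1, COL5A2, COL6A3, COL1A1 and COL28A1, of which COL28A1 alone was under the limit in siPDCD4. The basement membrane (type IV) family carried 65.0 ± 3.8% of all collagen TPM in siPDCD4 and 62.7 ± 2.9% in siCT (SD, n = 3 each). The hexagonal network family, which is almost wholly COL8A1, carried 11.9 ± 3.6% in siPDCD4 and 15.4 ± 1.5% in siCT. FACIT chains had 10.9 ± 0.2% in siPDCD4 and 11.9 ± 0.8% in siCT, and the anchoring fibril chain COL7A1 had 6.62 ± 1.09% in siPDCD4 and 3.79 ± 0.95% in siCT. Fibrillar chains together had only 2.70 ± 0.50% in siPDCD4 and 3.30 ± 0.32% in siCT. Among the top 5, neighbours in this order overlapped across the siCT libraries, while COL4A5 and COL4A2 lay above COL4A1 and COL4A6, and COL8A1 above COL4A6, with no overlap. Further down, COL4A6 lay above COL12A1, COL12A1 above COL7A1, COL16A1 above COL5A2 and COL5A2 above COL6A3 in all 3 siCT libraries with no overlap, while COL7A1 overlapped COL16A1. COL1A1 overlapped both COL6A3 and COL28A1, and COL6A3 lay above COL28A1 with no overlap.

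**Figure D1:**
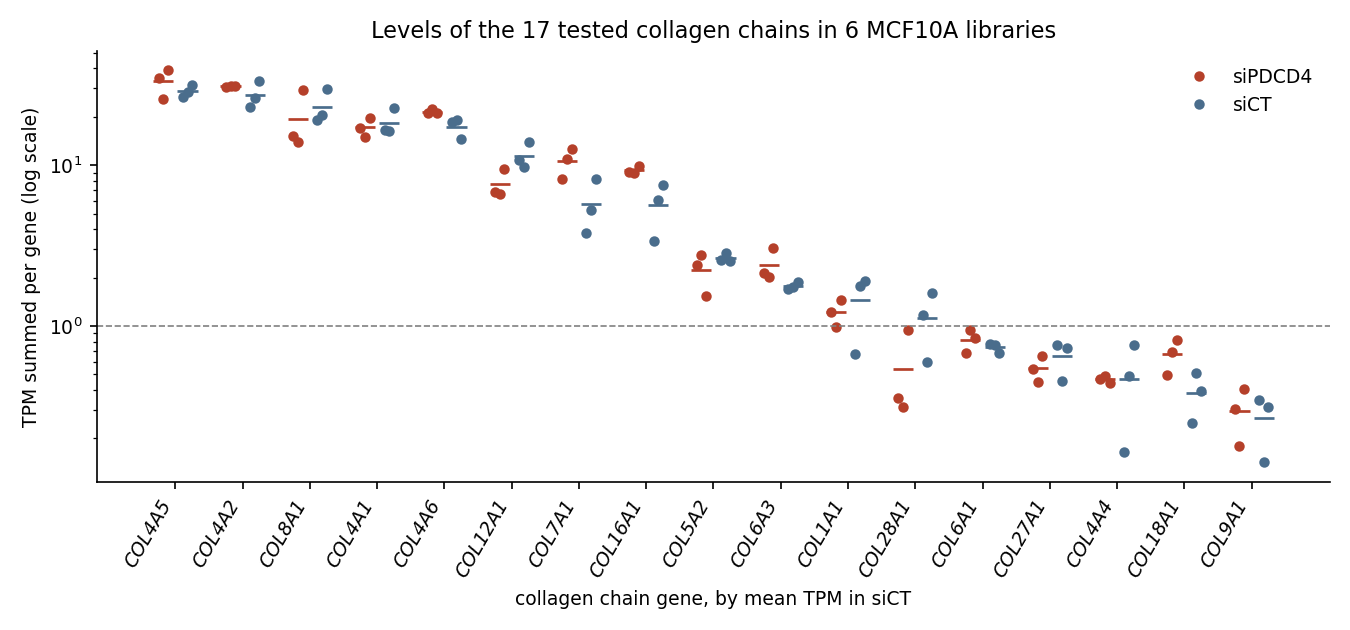
TPM (log axis) of the 17 collagen chains with enough counts to be tested, in siPDCD4 (red, left of each pair) and siCT (blue, right). Points are libraries, short lines are group means, and the dashed line marks 1 TPM. COL8A1 and the type IV chains COL4A1, COL4A2, COL4A5 and COL4A6 lie at the top. Under 1 TPM in both group means lie 5 chains, the type IV chain COL4A4 among them.

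Another 31 chains did not reach the limit in siCT. Of these, 7 had no count in any library, namely COL6A5, COL6A6, COL10A1, COL11A1, COL15A1, COL23A1 and COL26A1, which allows up to 3 counts each, or between 0.137 and 0.224 CPM, in a single library (counting error only). A further 13 chains had between 1 and 10 counts over all 6 libraries, among them partners that expressed chains assemble with elsewhere. COL1A2, which joins COL1A1 in type I collagen, had 0, 3 and 1.02 counts in siPDCD4 and 0, 1.00 and 0 in siCT. COL6A2, a partner of COL6A1 and COL6A3 in type VI collagen, had 1 count in siPDCD4 and 1 in siCT, and COL5A1, the usual partner of COL5A2, also had 1 in each. COL3A1 had none in siPDCD4 and 1 in siCT. COL1A1 was present at 1.22, 0.989 and 1.45 TPM in siPDCD4, against 0.673, 1.77 and 1.91 TPM in siCT, so the groups overlapped and its partner was near absent in both. Among the chains too low to be tested, 19 had some count, and the transmembrane chain COL13A1 was the highest, with 10, 14 and 7 counts in siPDCD4 and 7, 7 and 9 in siCT.

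Of the 43 chains, 17 passed the filter on low counts and were tested for a difference between siPDCD4 and siCT, a filter that favours chains high in at least 1 group. In edgeR's quasi-likelihood test with Benjamini-Hochberg adjustment over 13047 genes, 0 of 17 chains passed an FDR of 5%, where 0.429% of all genes did (56 genes). At an unadjusted p under 0.05 there were 6 chains, or 35.3%, beside 8.82% of all genes, and DESeq2 called 1 chain, COL12A1, where it called 1.28% of all genes. The 6 were COL4A6, COL7A1, COL16A1, COL18A1 and COL6A3, all with positive estimates, and COL12A1 with a negative one. Over the 17 chains, 10 estimates lay above 0 and 7 below, with a median log2 fold change of 0.14, beside -0.0024 for all genes tested. The median standard error was 0.2503 for the chains and 0.138 for all genes, so chains were measured less precisely than a typical gene. In bulk RNA, fewer cells that make a chain and less RNA per cell cannot be told apart. The libraries of siPDCD4 and siCT did not overlap for 4 chains, COL4A6, COL16A1, COL18A1 and COL6A3, where 14.2% of all genes did not overlap.

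**Figure D2:**
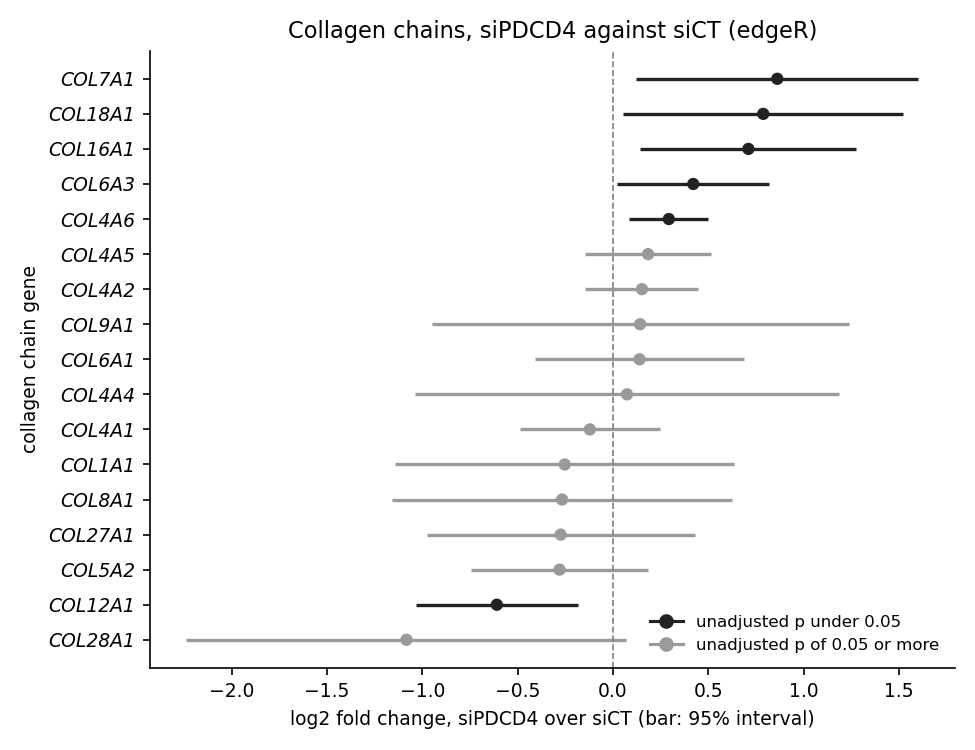
Log2 fold change of siPDCD4 over siCT for the 17 tested collagen chains, with 95% intervals from edgeR. Dark points have an unadjusted p under 0.05. Estimates run from -1.08 (COL28A1) to 0.86 (COL7A1), and no chain passed the FDR of 5%.

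COL12A1 encodes the chain of type XII collagen, a homotrimer that sits on the surface of fibrils, and lies at chr6:75084326-75206267 (minus strand, GRCh38). It was at 66.8, 65.7 and 94.98 CPM in siPDCD4, against 110, 93.6 and 145 CPM in siCT. The highest siPDCD4 library thus lay just above the lowest siCT library, while the other siPDCD4 libraries lay below all of siCT. The log2 fold change was -0.61 ± 0.19 (SE, edgeR adjusted p = 0.334), a siPDCD4 to siCT ratio of 0.655. DESeq2 gave -0.61 with an adjusted p of 0.0373. With replicate number as a block in the model, edgeR gave -0.61 with an adjusted p of 0.0165. The estimate was -0.42 without siCT replicate 3 and -0.80 without siPDCD4 replicate 3. With no length offset it was -0.40, and in edgeR no analysis that left out a library passed the FDR. Over all 15 alternatives the adjusted p of COL12A1 lay between 1.67e-06 and 0.744.

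COL7A1 and COL16A1 had estimates on the other side of 0. COL7A1, the anchoring fibril chain at chr3:48564073-48595329 (minus strand), was at 43.5, 57.9 and 68.5 CPM in siPDCD4, against 20.6, 27.2 and 46.4 CPM in siCT, so only the highest siCT library reached into the siPDCD4 range. Its log2 fold change was 0.86 ± 0.31 (edgeR adjusted p = 0.475), with a 95% interval between 0.12 and 1.601. With no length offset it was 0.66, and with protein-coding transcripts alone it was 0.55. With replicate number as a block in the edgeR model it was 0.91 (adjusted p = 0.0268), where 77 genes of any kind were called. COL16A1, a FACIT chain at chr1:31652263-31704319 (minus strand) that was named for its position among the low p-values after its values were seen, was at 26.4, 26.3 and 29.2 CPM in siPDCD4, against 10.2, 17.3 and 23.2 CPM in siCT. The siPDCD4 libraries were nearly level and all above the widely spread siCT libraries. The log2 fold change was 0.71 ± 0.25 (edgeR adjusted p = 0.417). With a library left out, the COL7A1 estimate lay between 0.63 (without siCT replicate 1) and 1.24 (without siCT replicate 3). The COL16A1 estimate lay between 0.43 and 1.01 in the same 2 analyses.

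**Figure D3:**
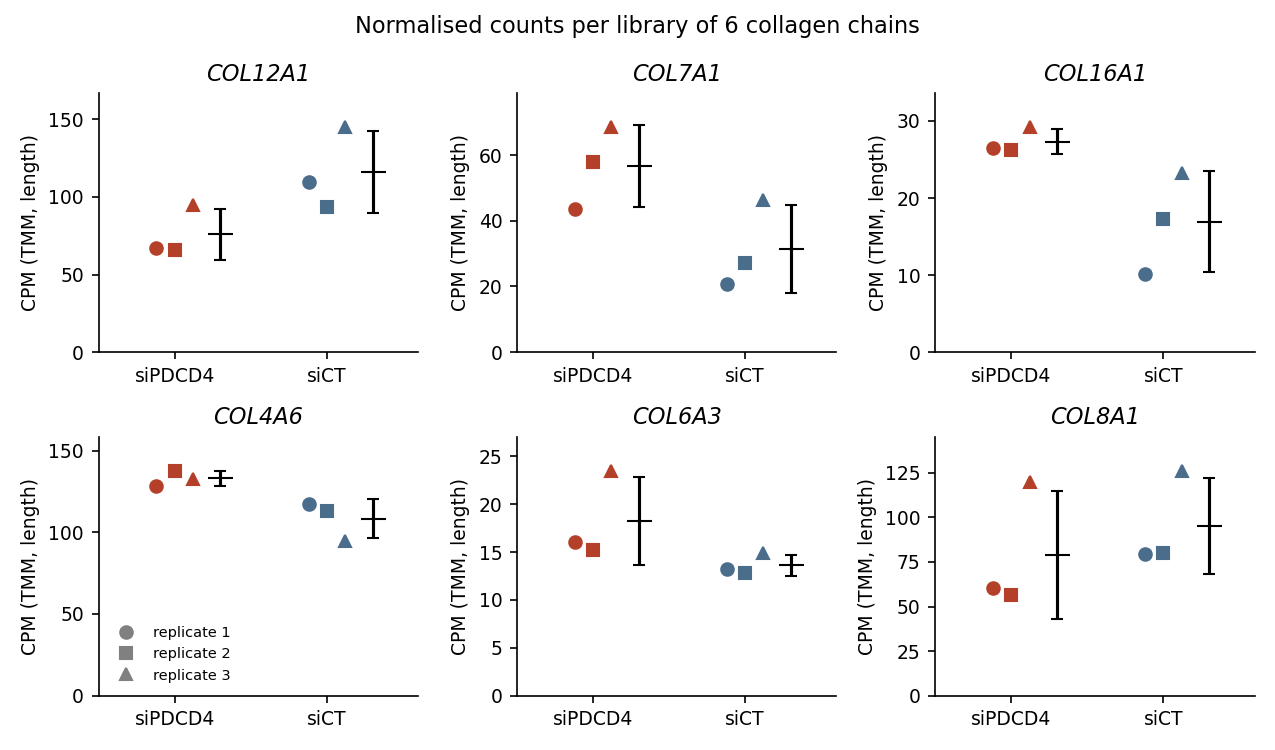
CPM of 6 collagen chains in siPDCD4 (red, left) and siCT (blue, right), normalised by TMM and transcript length, each axis starting at 0. Symbols mark replicate numbers, and black bars give the mean and SD of 3 libraries. COL16A1, COL4A6 and COL6A3 show no overlap between groups, while COL8A1 spreads between 56.2 and 120 CPM within siPDCD4 and between 79.3 and 126 CPM within siCT.

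The other structural families were described by their most abundant chain. COL8A1 encodes a short-chain collagen that forms hexagonal lattices beneath some epithelia and endothelia, and was at 60.3, 56.2 and 120 CPM in siPDCD4, against 79.3, 79.8 and 126 CPM in siCT. Replicate 3 was far above the rest in both groups, and the log2 fold change was -0.27 ± 0.36 (edgeR adjusted p = 0.946), or -0.01 without siCT replicate 3 and -0.70 without siPDCD4 replicate 3. COL6A3, the large type VI chain, was at 16.1, 15.2 and 23.5 CPM in siPDCD4 and 13.3, 12.8 and 14.9 CPM in siCT, and its log2 fold change was 0.42 ± 0.18 (edgeR adjusted p = 0.524). The COL6A3 estimate fell to 0.20 with no length offset and to 0.10 with protein-coding transcripts alone. The fibrillar chain COL5A2 was at 9.25, 10.7 and 6.10 CPM in siPDCD4 and 10.3, 10.7 and 10.4 CPM in siCT (log2 fold change -0.28 ± 0.21). In these length-corrected values the siCT libraries were level, and 1 low siPDCD4 library set the estimate. That library was not low in COL5A2 estimated counts, which were 151, 141 and 146 in siPDCD4. With no length offset the COL5A2 estimate was -0.09. COL18A1, a multiplexin of basement membranes whose C-terminal fragment is endostatin, had 2.45, 3.40 and 4.10 CPM in siPDCD4 and 1.27, 2.44 and 2.06 CPM in siCT, which rested on between 24 and 57 counts in a library. COL28A1, a chain with few reads, had 0.884, 0.753 and 2.38 CPM in siPDCD4 and 2.94, 1.44 and 4.21 CPM in siCT, a log2 fold change of -1.08 ± 0.52 with a 95% interval between -2.24 and 0.07. It was -0.71 without siCT replicate 3 and -1.76 without siPDCD4 replicate 3. The remaining tested chains, COL1A1, COL6A1, COL27A1, COL4A4 and COL9A1, had estimates between -0.27 and 0.14 with edgeR adjusted p-values of at least 0.925, and COL1A1, COL4A4 and COL9A1 changed sign under an alternative.

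Type IV collagen was examined chain by chain because its 6 genes lie as head-to-head pairs and their products assemble in set trimers. COL4A1 and COL4A2 encode the chains of the ubiquitous trimer and start 126 bases apart on chromosome 13. COL4A5 and COL4A6 encode chains found together in the basement membranes of skin and some other epithelia, and the outer COL4A6 start lies 379 bases from that of COL4A5 on chromosome X. COL4A3 and COL4A4, which share the kidney and lung trimer with COL4A5, held between 0.0163% and 0.738% of type IV TPM each in any library. The stretches before these starts are printed because the abundant chains come from them. They were taken from the RefSeq promoter table (GRCh38.p14) and trimmed so that no annotated exon lies inside. Capitals mark CCAAT and GGGCGG or their reverse complements ATTGG and CCGCCC. The stretches are chr13:110307158-110307257 (plus strand, between the COL4A1 and COL4A2 starts), chrX:108439588-108439837 (plus strand, before COL4A5) and chrX:108438431-108438672 (minus strand, before the inner COL4A6 start).
COL4A1 to COL4A2 interval: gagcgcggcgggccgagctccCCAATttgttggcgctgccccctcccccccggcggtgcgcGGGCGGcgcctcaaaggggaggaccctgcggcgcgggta
COL4A5 upstream: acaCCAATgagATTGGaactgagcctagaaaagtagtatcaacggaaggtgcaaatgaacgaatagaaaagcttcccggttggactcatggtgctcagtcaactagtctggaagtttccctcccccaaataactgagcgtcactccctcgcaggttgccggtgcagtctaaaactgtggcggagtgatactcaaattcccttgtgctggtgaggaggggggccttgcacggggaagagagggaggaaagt
COL4A6 inner start upstream: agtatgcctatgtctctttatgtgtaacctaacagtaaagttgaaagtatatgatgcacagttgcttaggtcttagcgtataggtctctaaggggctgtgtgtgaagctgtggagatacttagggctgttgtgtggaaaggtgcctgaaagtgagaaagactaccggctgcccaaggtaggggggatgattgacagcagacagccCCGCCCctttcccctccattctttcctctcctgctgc

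The RefSeq table held a window of 300 bases (250 before and 50 after the start) for 31 of the 43 chains and for 9 of the 12 expressed in siCT. A gene was counted where any of its windows held a match. On either strand, CCAAT occurred in 5 of the 9 (COL28A1 and the type IV chains COL4A1, COL4A2, COL4A5 and COL4A6), in 6 of the other 22 chains and in 39.7% of 27305 genes. For COL4A6 the CCAAT matches lay only in the window of the outer start, and the window of the inner start had 0. GGGCGG occurred in 6 of the 9, in 15 of the other 22 and in 48.3% of all genes. TATAAA occurred in 1 of the 9 (COL7A1), in 5 of the other 22 and in 14.0% of all genes. COL4A1 and COL4A2 read the same interval from opposite ends, so their matches are not separate observations. The COL4A5 window (chrX:108439588-108439887) likewise overlaps the outer COL4A6 window (chrX:108439409-108439708). The CCAAT matches of COL4A5 lie in both windows, so they are not separate from those of COL4A6. A match is a string of letters in a window and was not tested as a binding site.

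COL4A6 had the smallest error among the chains. It was at 128, 138 and 133 CPM in siPDCD4, against 117, 113 and 94.8 CPM in siCT, so the 3 siPDCD4 libraries lay above every siCT library, with the lowest value in siCT replicate 3. Its log2 fold change was 0.29 ± 0.09 (SE, edgeR adjusted p = 0.333), or 0.21 without siCT replicate 3. COL4A5, its partner, was at 177, 133 and 202 CPM in siPDCD4 and 139, 142 and 170 CPM in siCT, with a log2 fold change of 0.18 ± 0.15 and a 95% interval between -0.15 and 0.51. COL4A2 was at 179, 182 and 187 CPM in siPDCD4 and 140, 148 and 207 CPM in siCT (log2 fold change 0.15 ± 0.13). Its siPDCD4 libraries lay inside the siCT range, and without siCT replicate 3 the estimate was 0.34. COL4A1 was at 105, 93.5 and 124 CPM in siPDCD4 and 106, 97.6 and 148 CPM in siCT, with a log2 fold change of -0.12 ± 0.16 that turned to 0.08 without siCT replicate 3. None of these 4 passed the FDR of 5% in edgeR or DESeq2.

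Within the type IV family, COL4A1 took 16.2, 15.9 and 17.5% of the summed TPM in siPDCD4, against 19.4, 17.9 and 21.95% in siCT, 2 sets that did not overlap. The shares of COL4A2, COL4A5 and COL4A6 overlapped. The ratio of COL4A1 to COL4A2 in TPM was 0.554 ± 0.071 in siPDCD4 and 0.671 ± 0.046 in siCT (SD, n = 3 each), and 1 siPDCD4 library at 0.626 lay within the siCT values. The ratio of COL4A6 to COL4A5 was 0.671 ± 0.169 in siPDCD4 and 0.609 ± 0.128 in siCT. COL4A5 and COL4A6 together held 52.8 ± 1.6% of type IV TPM in siPDCD4 and 50.2 ± 4.6% in siCT, and COL4A1 and COL4A2 together held 46.6 ± 1.7% in siPDCD4 and 49.2 ± 4.4% in siCT. The siCT libraries were at 53.0, 52.7 and 44.9% for COL4A5 and COL4A6. For COL4A1 and COL4A2 they were at 46.7, 46.7 and 54.3%. In both cases siCT replicates 1 and 2 lay within the siPDCD4 range, and siCT replicate 3 alone set the difference between the means.

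**Figure D4:**
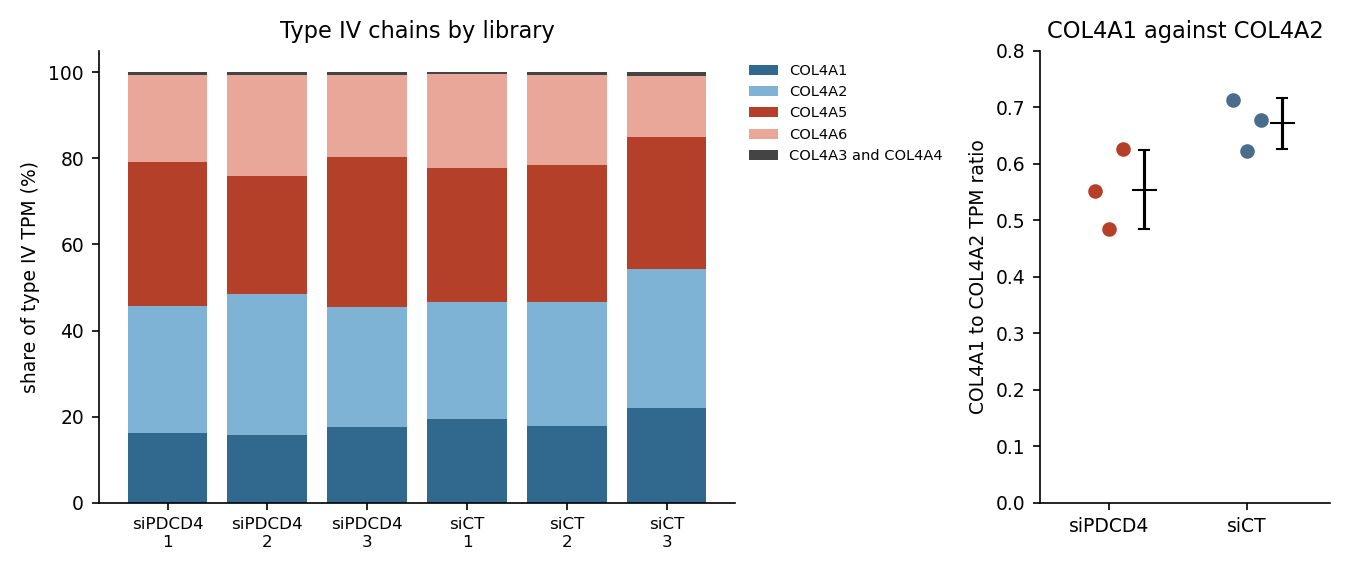
Left, share (%) of summed type IV TPM held by each chain in the 3 siPDCD4 libraries and then the 3 siCT libraries. Right, ratio of COL4A1 to COL4A2 TPM per library, with mean and SD of 3 libraries in black, in siPDCD4 (left) and siCT (right). COL4A3 and COL4A4 form the thin top band, and the COL4A1 share lies between 15.9 and 17.5% in siPDCD4 and between 17.9 and 21.95% in siCT.

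The chains were also followed by transcript, since Salmon assigns reads to transcripts and total RNA holds unspliced molecules. Of 430 transcripts of the 43 genes, 56 were tested among 47375, and edgeR's quasi-likelihood test with Benjamini-Hochberg adjustment called 0 of them and 0 transcripts of any gene. At an unadjusted p under 0.05 there were 2 of the 56 (COL16A1-202 and COL4A5-201), or 3.57%, beside 3.23% of all transcripts, and DESeq2 called 0 of the chains' transcripts where it called 0.646% of all. COL4A5 was made mainly of COL4A5-202, at 71.8, 64.1 and 73.7% of the gene's counts in siPDCD4 and 67.2, 60.4 and 54.6% in siCT, and of COL4A5-201, at 21.7, 31.5 and 19.5% in siPDCD4 and 28.2, 35.2 and 39.1% in siCT. These 2 transcripts differ by 6 codons, and their shares overlapped between the groups. COL4A6 was read mainly from inner starts, with COL4A6-201 at 51.4, 50.3 and 42.6% in siPDCD4 and 35.8, 62.4 and 44.4% in siCT. Transcripts from a neighbouring inner start, that of COL4A6-209, held 15.3, 22.6 and 31.0% in siPDCD4 and 28.2, 18.6 and 20.4% in siCT. Those from the outer start of COL4A6-202 held 32.5, 26.6 and 24.6% in siPDCD4 and 33.2, 16.9 and 34.9% in siCT. The spread within siCT was wider than the distance between the groups.

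COL12A1-201, which codes for 3063 residues, held 57.9, 55.5 and 68.2% of COL12A1 counts in siPDCD4 and 49.4, 61.5 and 59.8% in siCT. COL12A1-203, shorter by 76 codons, held 28.2, 33.2 and 29.0% in siPDCD4 and 27.2, 20.2 and 27.2% in siCT, which left all 3 siPDCD4 libraries above siCT. For COL8A1, whose 3 main transcripts code for the same 744 residues, COL8A1-209 held 52.6, 50.7 and 53.4% in siPDCD4 and 50.4, 38.3 and 39.6% in siCT, also without overlap. In the edgeR transcript test the log2 fold change was -0.14 ± 0.29 for COL12A1-203 (unadjusted p = 0.654). For COL8A1-209 it was 0.12 ± 0.36 (unadjusted p = 0.762). How often shares did not overlap among all transcripts was not counted, and no change of shares was tested. Retained-intron transcripts held 17.2 ± 1.6% of COL7A1 counts in siPDCD4 and 12.1 ± 5.6% in siCT, and 15.3 ± 1.1% of COL16A1 counts in siPDCD4 and 20.0 ± 3.3% in siCT (SD, n = 3 each). Retained-intron transcripts held 21.5 ± 2.5% of COL6A3 counts in siPDCD4 and 20.3 ± 2.5% in siCT. All COL9A1 counts lay in transcripts outside the protein-coding type, at most 16.2 counts in a library, so its level was no measure of coding mRNA.

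**Figure D5:**
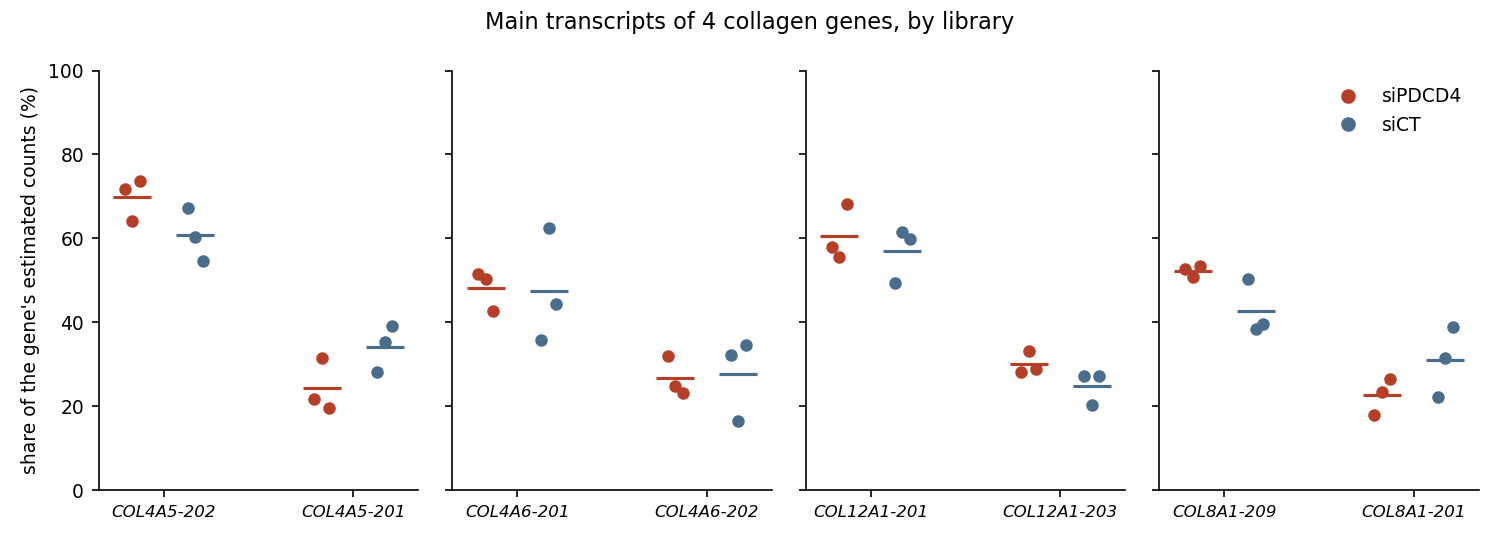
Share (%) of a gene's estimated counts held by the main transcripts of COL4A5, COL4A6, COL12A1 and COL8A1 in siPDCD4 (red, left of each pair) and siCT (blue, right). Points are libraries and lines are means of 3. COL4A5-202 has means of 69.8% in siPDCD4 and 60.7% in siCT with overlapping libraries.

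Collagen chains depend on enzymes and chaperones in the endoplasmic reticulum, on a dedicated export route, on cleavage and cross-linking outside the cell, and on receptors that bind the finished fibre. Of 23 folding and modification genes, 21 were tested and 0 passed the FDR of 5% in either direction, with a median log2 fold change of -0.07 beside -0.0024 for all genes. SERPINH1, the collagen chaperone HSP47, was at 177, 177 and 180 CPM in siPDCD4, against 152, 138 and 152 CPM in siCT, with no overlap and a log2 fold change of 0.28 ± 0.07 (edgeR adjusted p = 0.215). CRTAP, part of the prolyl 3-hydroxylation complex, had a log2 fold change of -0.21 ± 0.07 (edgeR adjusted p = 0.402). All 13 procollagen export genes were tested, 0 passed, and 11 estimates lay below 0 with a median of -0.08. Those with the smallest p were the COPII GTPases SAR1B (-0.19 ± 0.08) and SAR1A (-0.28 ± 0.11), the ubiquitin ligase adaptor KLHL12 (-0.22 ± 0.09) and the cargo receptor MIA3, or TANGO1 (-0.23 ± 0.10). Of 18 cleavage and cross-linking genes, 9 were tested and 0 passed, and the tolloid-like protease TLL1 had the smallest p (log2 fold change -0.77 ± 0.28, edgeR adjusted p = 0.437). The cleavage enzyme ADAMTS2 and the lysyl oxidase LOXL4 had no counts.

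Among the receptors, 10 of 13 were tested and edgeR called 1 in each direction, where 0.429% of all genes were called. No other pathway list had a call in edgeR. MRC2, or Endo180, takes up collagen fragments, and was higher in siPDCD4 at 22.2, 28.3 and 29.7 CPM, against 13.8, 14.5 and 16.1 CPM in siCT (log2 fold change 0.85 ± 0.14, edgeR adjusted p = 0.0383). ITGB1, the beta 1 subunit of the collagen-binding integrins, was lower in siPDCD4 at 940, 943 and 993 CPM, against 1332, 1257 and 1268 CPM in siCT (-0.42 ± 0.07, edgeR adjusted p = 0.0442). Neither pair of groups overlapped, but both calls lay close to the limit. With a library left out, the MRC2 call was lost in each of the 6 analyses (edgeR adjusted p between 0.0565 and 0.153), and the ITGB1 call in 5 of 6, where the adjusted p was between 0.0676 and 0.323. MRC2 also missed the limit in limma-voom (adjusted p = 0.0563), with no length offset (adjusted p = 0.0577) and with protein-coding transcripts alone (adjusted p = 0.307). The tested collagen-binding alpha subunits had log2 fold changes of -0.39 ± 0.14 (ITGA1), -0.32 ± 0.13 (ITGA10) and 0.24 ± 0.14 (ITGA2), none of which passed. The scavenger receptor CD36 was at 1.16, 0.353 and 2.75 CPM in siPDCD4, against 0.262, 0.405 and 0.143 CPM in siCT, so the groups overlapped at low levels. Its estimate of 2.51 ± 0.79 (edgeR adjusted p = 0.334) was 1.51 without siPDCD4 replicate 3.

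Of 14 collagen-degrading enzymes, 10 were tested and 0 passed, with a median log2 fold change of 0.08 and 8 estimates above 0. The membrane collagenase MMP14 was at 92.9, 104 and 111 CPM in siPDCD4, against 72.0, 83.1 and 81.3 CPM in siCT, without overlap, with a log2 fold change of 0.38 ± 0.09 (edgeR adjusted p = 0.194). DESeq2, which called 1.28% of all genes, gave MMP14 an adjusted p of 0.0428. The gelatinases MMP2 (0.84 ± 0.29) and MMP9 (0.99 ± 0.44) did not pass. No list was tested as a whole.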

How the data were processed

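MCF10A total RNA was prepared as stranded libraries and sequenced as paired reads, and the authors quantified transcripts with Salmon (version not given in the sources used here) on GRCh38. The estimated counts and the TPM values were deposited by the authors, 1 table per library, with 194142 transcripts each. Estimated counts were summed per gene through GENCODE 44, which matched 181244 transcripts by identifier, and rounded. Transcripts without a match held between 5.47% and 6.21% of counts and were left out. A single processed-pseudogene transcript held between 29.1% and 34.5% of TPM in a library, which lowers the TPM of all other genes alike within that library. CPM are corrected for library size and for the average transcript length of the gene.

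Genes were tested with edgeR 4.0.16 (quasi-likelihood, robust, TMM factors, filterByExpr, length offset) in R 4.3.3, with Benjamini-Hochberg adjustment over all genes and an FDR of 5%. SE came from the estimate and its F statistic. DESeq2 1.42.0 and limma 3.58.1 (voom) served as alternatives, with 15 alternatives in all, 6 of which left out a library. On simulated data with 200 changed genes among 13047, the edgeR test recovered 74% of genes changed by 1 and 99% of those changed by 2 on the log2 scale, with 15 false calls. No rate is given for the chains alone, whose median standard error was 0.2503, beside 0.138 for all genes. Coding repeats were counted from coding sequences rather than from proteins. Promoter sequences, their coordinates and the start positions used with them are RefSeq's. Coordinates of genes, transcripts and coding sequences are GENCODE's.

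Values are given per library for PDCD4, for chains past the FDR of 5% in edgeR or DESeq2, for the expressed type IV chains and for the most abundant chain of each family. Of the pathway lists, the genes past the FDR and otherwise up to 4 with the smallest p are named. The members and lists were chosen with earlier results of these data known.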

Additional observations from a re-analysis of the deposited data

How the results depend on the processing

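Over 15 alternatives, the direction and side of the FDR of 5% stayed the same in 234 of 247 comparisons of a chain with its main value. The 56 genes called became 180 with DESeq2, 108 with no expression filter, 126 with no length offset, 189 with DESeq2 and a replicate block (chosen after seeing the data), and between 9 and 40 with a library left out. The collagen chains called, 0 in edgeR, were 1 with DESeq2 and 0 with any library left out. With the replicate block in edgeR 77 genes were called, 2 chains among them, COL12A1 (-0.61, adjusted p = 0.0165) and COL7A1 (0.91, adjusted p = 0.0268). With the block in DESeq2 there were 3, COL12A1 (adjusted p = 1.67e-06), COL7A1 (adjusted p = 9.51e-07) and COL16A1 (adjusted p = 0.0315). The replicate numbers were not taken as a pairing, since the labels do not state one. Deviations from the group means correlated at 0.07, 0.12 and 0.18 for the same number, all positive. For unlike numbers the correlations lay between -0.19 and 0.10, and most were negative. The highest of these was siPDCD4 replicate 1 with siCT replicate 2. Whether the numbers mark pairs was not tested, and the main result of 0 chains called rests on a model without the block. For transcripts, DESeq2 called 374 against 0 in edgeR. The chains expressed, 11 in siPDCD4 and 12 in siCT, were 17 in siPDCD4 and 17 in siCT by filterByExpr, 15 and 14 at 0.5 TPM, 10 and 9 at 2 TPM, 10 and 10 with protein_coding transcripts only, and 13 and 14 with TPM rescaled to protein-coding genes (chosen after seeing the data). The sign turned for COL4A1 (0.078) and COL1A1 (0.026) without siCT replicate 3, for COL9A1 without siPDCD4 replicate 3 (-0.16) or siCT replicate 2 (-0.19), and for COL4A4 with no length offset (-0.029), with protein_coding transcripts only (-0.11) or without siCT replicate 1 (-0.42). With a library left out, estimates lay between -0.24 and 0.078 for COL4A1, -0.62 and 0.026 for COL1A1, -0.19 and 0.41 for COL9A1, and -0.42 and 0.61 for COL4A4. The cause was not tested. With 3 libraries a group, chains under 1 TPM rested on few counts.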

Other observations

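Replicate 3 was the highest library of siPDCD4 and also the highest library of siCT for 10 of the 17 tested chains (58.8%), where this held for 18.9% of the 13047 genes tested. Among the 10 were COL8A1, COL12A1 and COL7A1. Its part in the differences between siPDCD4 and siCT was not tested.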
